A study of Homo sapiens with 12 samples.

Results

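KLKP1 is a transcribed pseudogene of the kallikrein cluster on human chromosome 19, and it was followed here with 9 of its protein-coding neighbours: KLK2, KLK3, KLK4, KLK5, KLK6, KLK7, KLK8, KLK10 and KLK11. These 10 genes were taken by name from the 60649 genes of the count tables. KLKP1 was chosen by its measured levels, having the largest rise with lurbinectedin against control in these same libraries, so every comparison of it that uses the lurbinectedin or control libraries is given as a description, with no test. The neighbours were listed to see whether they rose with it.

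The libraries came from SBC3, an established human small cell lung cancer cell line, which the series describes as grown in spheroids. There were 4 groups of 3 libraries: control cells, cells given teriflunomide, cells given lurbinectedin, and cells given both drugs (called the combination below). Teriflunomide inhibits the pyrimidine synthesis enzyme dihydroorotate dehydrogenase, and lurbinectedin is a DNA-binding alkylating drug that stalls RNA polymerase II. Doses and times are not given in the sources used here, all libraries come from 1 line, and the labels do not say whether replicates were separate cultures, so p-values measure only the spread between these libraries. In such bulk libraries, fewer cells expressing a gene and less RNA per cell cannot be told apart.

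Kallikreins are secreted serine proteases whose genes lie side by side in one cluster. KLK2, KLK3 and KLK4 are best known from the prostate, where androgen drives them, whereas KLK5, KLK7 and KLK8 are known from the shedding of skin cells. KLKP1 lies between the prostate genes and its transcripts are annotated in GENCODE as a pseudogene and as noncoding RNAs.

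KLKP1 (ENSG00000197588.9) spans chr19:50882096-50896398 on the minus strand of GRCh38, and 1912 exonic bases were counted. The 7 exon intervals of the count tables are identical to those of its 3 transcripts in GENCODE release 29. No other gene of the tables overlaps it. KLK2 ends 1.53 kb to the low-coordinate side of KLKP1 and KLK4 starts 9.95 kb to the other side. KLK3 lies 21.3 kb away, and the rest run outwards from KLK5 at 46.9 kb to KLK11 at 126 kb.

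Because reads of near-identical copies could be exchanged between family members, KLKP1 was aligned with the transcripts of the other kallikreins. The stretches below are the best matches of its exons 4 and 3, written 5′ to 3′ on the transcribed strand, with capitals at bases that differ from, or are absent in, the aligned partner. Exon 4 of transcript KLKP1-202 (chr19:50887723-50887860) matched coding exon 2 of KLK1 (chr19:50821716-50821857) at 80.3% identity over 142 aligned positions, with 24 mismatches and 4 gap bases.
KLKP1 exon 4: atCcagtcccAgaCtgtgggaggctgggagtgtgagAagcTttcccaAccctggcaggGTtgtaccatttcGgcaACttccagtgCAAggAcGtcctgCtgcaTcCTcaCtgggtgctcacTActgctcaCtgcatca
KLK1 exon 2: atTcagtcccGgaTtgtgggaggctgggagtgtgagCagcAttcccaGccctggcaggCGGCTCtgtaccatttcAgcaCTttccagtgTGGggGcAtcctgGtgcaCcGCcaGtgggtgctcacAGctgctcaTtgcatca

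Exon 3 of the same transcript (chr19:50895063-50895185) matched coding exon 2 of KLK4 (chr19:50909252-50909372) at 75.4% identity over 126 aligned positions, with 23 mismatches.
KLKP1 exon 3: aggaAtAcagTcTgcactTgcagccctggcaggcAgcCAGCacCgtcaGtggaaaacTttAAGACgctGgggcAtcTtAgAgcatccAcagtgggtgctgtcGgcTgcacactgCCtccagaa
KLK4 exon 2: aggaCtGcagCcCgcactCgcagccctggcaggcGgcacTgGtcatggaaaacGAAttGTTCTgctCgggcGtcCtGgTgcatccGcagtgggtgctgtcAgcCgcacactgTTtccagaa

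The capitals are spread along both pairs, and exon 4 was no closer to KLK2 (75.0%) or KLK3 (75.2%). The closest match of any KLKP1 exon was that of exon 1 with KLK2, 86.1% over 72 bases. The 7 exon intervals of KLKP1 held 2128 stretches of 50 bases, with those in overlapping intervals counted more than once. Of these, 0 occurred in any of the GENCODE 29 transcripts of other genes. The read length is not given in the sources used here.

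KLKP1 was close to absent without lurbinectedin. The control libraries held 4, 0 and 1 counts, which is 0.134, 0 and 0.0299 CPM (counts per 1000000 of the effective library size). The teriflunomide libraries held 2, 3 and 4 counts, or 0.0586, 0.0898 and 0.136 CPM. None of these 6 libraries held more than 4 counts, where 3 counts in 1 of them are 0.0879 to 0.102 CPM. The control and teriflunomide groups overlap.

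With lurbinectedin the gene was abundant. The lurbinectedin libraries held 1474, 1964 and 1436 counts, or 71.4, 76.8 and 52.2 CPM. The combination libraries held 1102, 2254 and 677 counts, or 39.9, 95 and 21.6 CPM. All 6 libraries with lurbinectedin lie above all 6 without it. Of the tested genes, 42.4% had all lurbinectedin libraries above all controls, and 38.7% had this for the combination. For KLKP1, the combination group spans the whole lurbinectedin range and beyond.

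**Figure D1:**
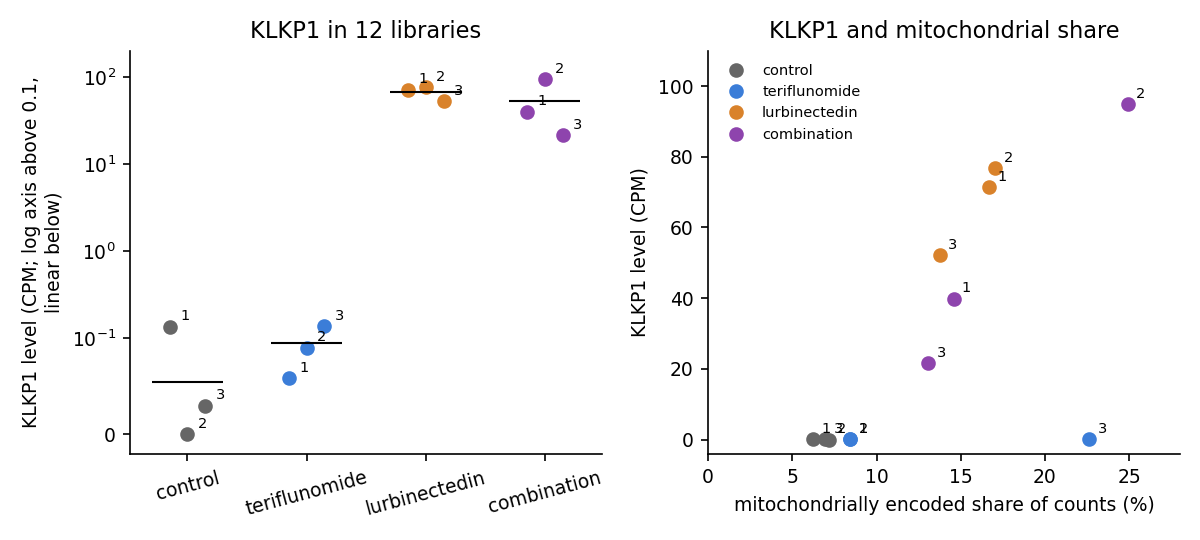
The left panel shows the KLKP1 level in CPM for each of 12 libraries by group (points numbered by replicate, bars at group means, log axis above 0.1 CPM and linear below), and the right panel plots the same levels on a linear axis against the share of counts from mitochondrially encoded genes in percent. The lurbinectedin and combination libraries lie between 21.6 and 95 CPM and the other 6 at or below 0.136 CPM, and teriflunomide replicate 3 has a high mitochondrial share with almost no KLKP1.

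In order of mean level, lurbinectedin came first at 66.8 ± 12.9 CPM (SD, n = 3) and the combination next at 52.2 ± 38.2 CPM. Teriflunomide followed at 0.0949 ± 0.0391 CPM and control at 0.0546 ± 0.0704 CPM. The first pair of groups overlap each other, as do the last pair, and the combination and teriflunomide libraries do not overlap. Per length, KLKP1 stood at 34.9 FPKM in lurbinectedin and 27.3 FPKM in the combination (CPM per kilobase of counted exon), ranks 1272 and 1504 from the top among 16683 tested genes. In control and teriflunomide it stood at 0.0286 and 0.0496 FPKM.

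Against control, the fitted log2 fold change was 10.17 with lurbinectedin and 9.81 with the combination. Both comparisons share the control libraries, and the first was used to choose the gene. These 2 fitted values rest on 5 control counts and are 11.69 and 11.33 without control replicate 1, which holds 4 of them.

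The combination against teriflunomide contrasts no library of the comparison that picked KLKP1, and asks what lurbinectedin adds when teriflunomide is present. The filter, the scaling and the spread behind its p-value were nevertheless taken from all 12 libraries, so the test is not fully separate from that choice. KLKP1 rose in it by a log2 fold change of 9.06 (SE 0.679, adjusted p = 4.49e-08, edgeR quasi-likelihood test with Benjamini-Hochberg adjustment), the largest rise of the 16683 genes tested. The summed counts were 4033 against 9, a depth-scaled ratio of 525 with a 95% exact interval of 276 to 1149 for counting error only. KLKP1 was the only 1 of the 10 members to be tested, and it was called higher (adjusted p under 0.05), where 35.2% of all tested genes were. It passed the filter on low counts only through the libraries with lurbinectedin. Without combination replicate 2 the log2 fold change was 8.31 (edgeR adjusted p = 1.52e-08). With only the groups compared in the fit it was 9.07 (edgeR adjusted p = 9.09e-06).

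The other comparisons of KLKP1 use libraries it was picked in and are given with no test. Teriflunomide against control had a fitted log2 fold change of 0.75 (SE 1.69), and the ratio of 9 to 5 counts was 1.73, with an exact interval of 0.521 to 6.58. Leaving out single libraries moved the fitted value from 0.22 without control replicate 2 to 2.28 without control replicate 1, so these counts do not fix its size.

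Adding teriflunomide to lurbinectedin gave KLKP1 a log2 fold change of -0.36. It was -1.12 without combination replicate 2 and 0.01 without combination replicate 3. Over all genes, none was called in this comparison by edgeR (0%, with 2599 genes at an unadjusted p under 0.05), and DESeq2 called 558. The fitted interaction of the drugs on KLKP1 was -1.11 on the log2 scale (SE 1.75). It ran from -2.64 without control replicate 1 to -0.58 without control replicate 2.

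The combination libraries differed among themselves by 4.40 times in KLKP1, and the lurbinectedin libraries by 1.47 times. Combination replicates 1, 2 and 3 drew 14.6%, 24.9% and 13.1% of their counts from mitochondrially encoded genes, the same order as their KLKP1 levels. In the lurbinectedin libraries the shares were 16.7%, 17.0% and 13.8%, again in the order of KLKP1. Controls had 6.26% to 7.17%. Teriflunomide replicates 1 and 2 had 8.42% and 8.43%, whereas teriflunomide replicate 3 had 22.6% with 4 counts of KLKP1. The part of the mitochondrial share in these differences was not tested.

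The 9 protein-coding neighbours did not pass the filter on low counts, so the test above covers none of them. Over all 12 libraries they held 79 counts together, against 8921 for KLKP1, and no neighbour exceeded 12 counts in a library. Their sum was 13 counts in control, 34 in teriflunomide, 11 in lurbinectedin and 21 in the combination. KLKP1 held 5, 9, 4874 and 4033 counts in the same groups.

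**Figure D2:**
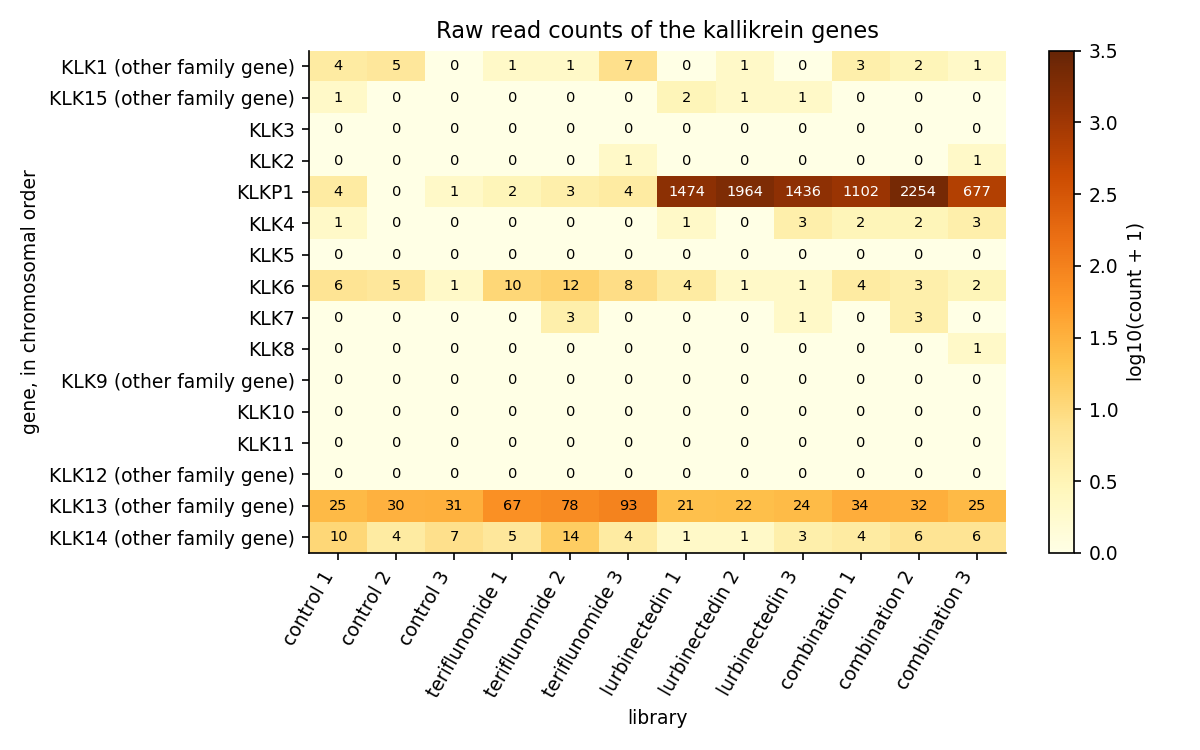
Raw counts of the 10 listed genes and the 6 other family members (rows, in chromosomal order) in each of 12 libraries (columns), coloured by log10(count + 1), with the count printed in each cell. The row of KLKP1 reaches 677 to 2254 counts in the 6 libraries with lurbinectedin, while adjoining KLK2 and KLK4 reach 1 and 3 counts.

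Among the prostate genes, KLK3, which encodes prostate-specific antigen, held 0 counts in all 12 libraries. KLK2, which encodes a protease able to activate that antigen, held 1 count in teriflunomide replicate 3 and 1 in combination replicate 3. A count of 0 over a group of 3 libraries allows up to 0.0310 CPM in teriflunomide and up to 0.0407 CPM in lurbinectedin (3 counts of the group total, counting error only). KLK2, the gene nearest to KLKP1, thus had no detectable RNA in the lurbinectedin group.

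KLK4 encodes a protease of the prostate and of enamel formation. It held 1, 0 and 0 counts in control, 0, 0 and 0 in teriflunomide, 1, 0 and 3 in lurbinectedin, and 2, 2 and 3 in the combination. All 3 combination libraries lie above all 3 teriflunomide libraries, as was so for 35.1% of tested genes, while control and lurbinectedin overlap. With 3 counts over the group as the floor for teriflunomide, which held 0, the 7 combination counts taken as exact stand 2.73-fold above that floor. The 95% exact lower limit of the ratio, which also carries the counting error of the 7 counts, was 1.69. The two-sided exact permutation test gave p = 0.1, the smallest that 3 libraries against 3 allow. With no filter on low counts, edgeR called KLK4 higher (adjusted p = 0.0338), as it did 18% of the 35577 genes then tested. That fit took a smaller spread: the SE of KLKP1 was 0.276 in it, against 0.679 with the filter. It also called 612 genes in the combination against lurbinectedin, where the fit with the filter called none. The KLK4 call rests on 7 counts against 0 and on that smaller spread.

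KLK5 and KLK7 encode the proteases that cut the junctions of outer skin cells. KLK5 held 0 counts throughout. KLK7 held 3 counts in teriflunomide replicate 2, 1 in lurbinectedin replicate 3 and 3 in combination replicate 2, and 0 elsewhere. KLK8, a protease of skin and brain, held 1 count in combination replicate 3, and KLK10 and KLK11, both of epithelial tissues, held 0 counts in all libraries. KLK8 shares 747 exonic bases with ENSG00000269741.5 and 204 with KLK9, both on its own strand. KLK5 and KLK10 share 202 and 240 exonic bases with genes on the other strand. How reads in shared bases were assigned is not given in the sources used here, so low counts of these genes are a weaker sign of absence.

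KLK6, a protease abundant in the nervous system, was the one neighbour with a count in every library. It held 6, 5 and 1 counts in control, 10, 12 and 8 in teriflunomide, 4, 1 and 1 in lurbinectedin, and 4, 3 and 2 in the combination. The teriflunomide libraries lie above all others, and the remaining groups overlap. Combination against teriflunomide was 9 against 30 counts, a ratio of 0.351 (95% exact interval 0.147 to 0.759; two-sided exact permutation p = 0.1), and combination libraries lay wholly below teriflunomide libraries in 35.6% of tested genes. Teriflunomide against control gave a ratio of 2.41 (1.20 to 5.16; exact permutation p = 0.1), and teriflunomide libraries lay wholly above control in 20.1% of tested genes. With no filter edgeR called neither difference, at adjusted p = 0.0501 and 0.315. Both differences use the same teriflunomide libraries. KLK6 shares 401 exonic bases with a gene on the other strand, and the strand setting of the counting is not given in the sources used here.

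KLK13, a kallikrein of epithelial tissues 159 kb from KLKP1, was not on the list but was the 1 of the 6 other family members to pass the filter. It held 0.838, 1.0 and 0.926 CPM in control, 1.96, 2.34 and 3.17 in teriflunomide, 1.02, 0.860 and 0.872 in lurbinectedin, and 1.23, 1.35 and 0.798 in the combination. The teriflunomide libraries lie above all 9 others, which overlap. KLK13 rose with teriflunomide against control by 1.42 on the log2 scale (SE 0.238, adjusted p = 0.00471 by edgeR) and fell in the combination against teriflunomide (-1.15, SE 0.237, edgeR adjusted p = 0.000603). Of all tested genes, 3.88% were called higher in the first comparison and 35.8% lower in the second. Both comparisons use the same teriflunomide libraries, so the rise and the fall are not separate observations. Lurbinectedin against control gave KLK13 a log2 fold change of -0.016 (SE 0.271). The interaction was not called (-1.14, SE 0.361, edgeR adjusted p = 0.281), where 0.258% of tested genes were. KLK14 held 21, 23, 5 and 16 counts over the groups in the same order, KLK1 held 9, 9, 1 and 6, KLK15 held 1, 0, 4 and 0, and KLK9 and KLK12 held 0. KLK9 shares 1390 exonic bases with ENSG00000269741.5 on its own strand, and KLK12 shares 160 with a gene on the other strand.

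**Figure D3:**
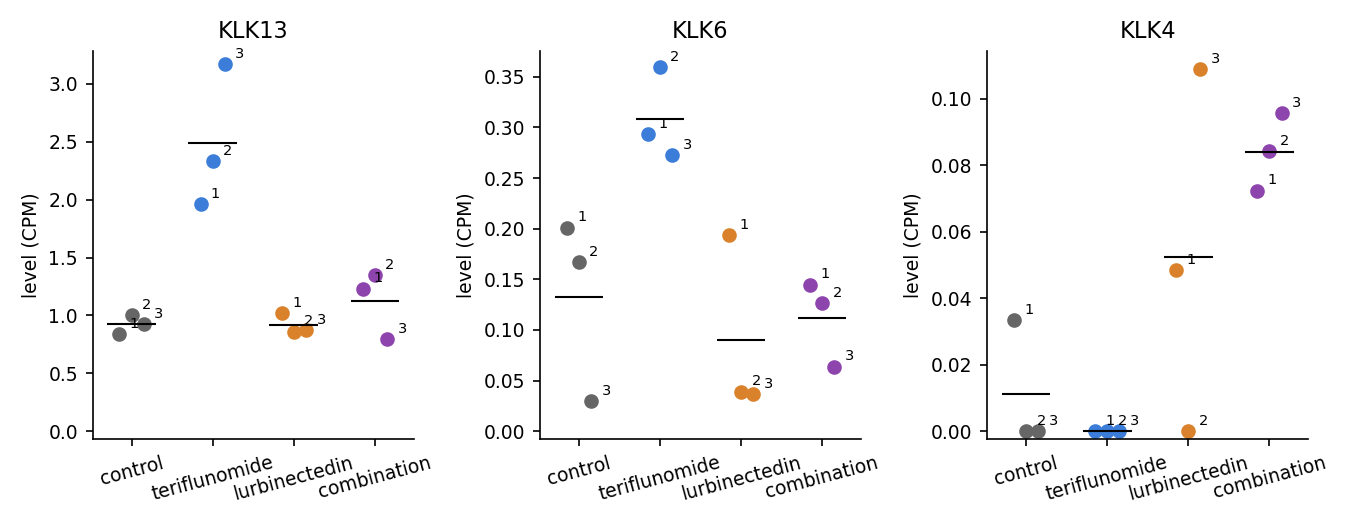
Levels in CPM on linear axes from 0 for KLK13, KLK6 and KLK4, one point per library numbered by replicate, with bars at group means. KLK13 and KLK6 are highest in the 3 teriflunomide libraries and KLK4, at 3 counts or fewer per library, is at 0 there.

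The wider locus was read from the 72 other genes within 500 kb of KLKP1, of which 22 passed the filter. In the combination against teriflunomide, 8 of the 22 were called higher and 5 lower, where 35.2% and 35.8% of all tested genes were. Their median log2 fold change was 0.23 against 0.04 over all genes. In lurbinectedin against control, the comparison in which KLKP1 was picked, the median of the 22 was 0.72 against 0.05, given with no test. With teriflunomide alone KLK13 was the 1 gene of the 22 called, where 6.01% of tested genes were, and the median was -0.19 against 0.03.

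Among locus genes with a symbol, those with the smallest adjusted p that rose were TMEM277P (log2 fold change 3.90, SE 0.536), SMIM47 (1.86, SE 0.345) and MYBPC2, which encodes a muscle myosin-binding protein (2.23, SE 0.430). TMEM277P lies 63.2 kb from KLKP1 and had 0, 0.150 and 0.0681 CPM in teriflunomide against 0.833, 1.14 and 1.44 CPM in the combination. Its groups do not overlap, and its log2 fold change was 4.98 without teriflunomide replicate 2 and 3.30 without teriflunomide replicate 1. Those that fell were IGLON5, encoding a neuronal adhesion protein (-1.98, SE 0.201), LRRC4B, encoding a synaptic adhesion protein (-1.68, SE 0.23), and KLK13. Adjusted p-values of these 6 genes by edgeR were 0.000603 or smaller.

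Chosen after its values were seen, the 100 kb on either side of KLKP1 held 4 other tested genes, TMEM277P, C19orf48P, SMIM47 and ENSG00000268375.1. Each was called higher, where 35.2% of tested genes were, but TMEM277P and ENSG00000268375.1 had at most 0.167 and 0.0669 CPM without lurbinectedin and passed the filter only through libraries with it, so their direction was partly fixed by the filter. All lie on the low-coordinate side, beyond KLK3, and the last overlaps the span of SMIM47. Their log2 fold changes ran from 1.26 for C19orf48P to 4.11 for ENSG00000268375.1. Between TMEM277P and KLK13, KLKP1 was the only gene to pass the filter.

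**Figure D4:**
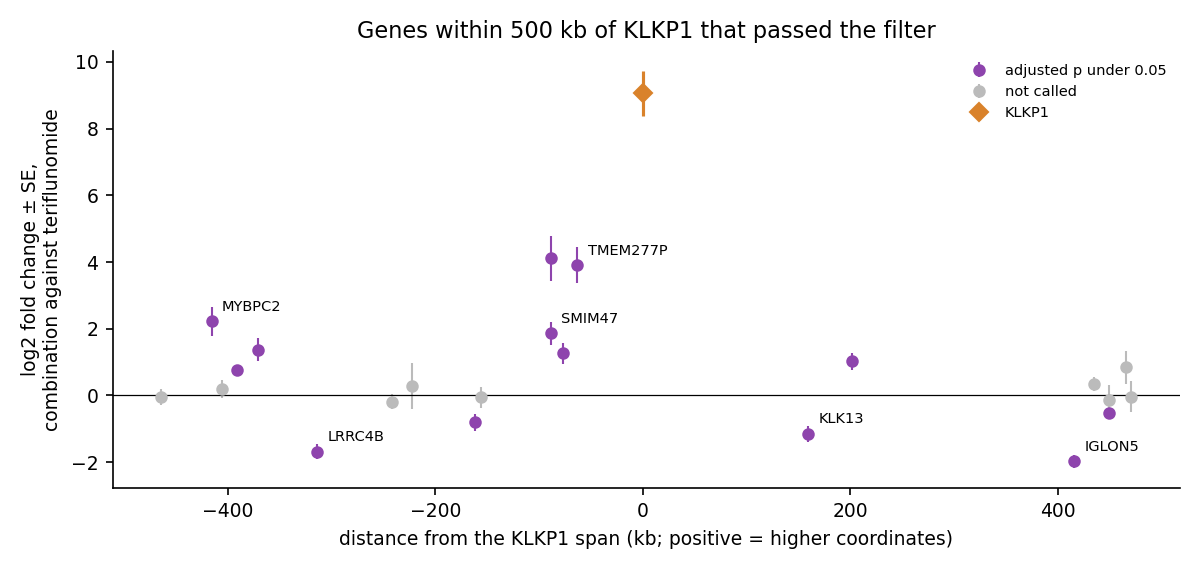
Log2 fold change with its standard error in the combination against teriflunomide for KLKP1 and the 22 tested genes within 500 kb, plotted by distance from KLKP1 in kb. KLKP1 stands at 9.06, and the other genes lie between -1.98 and 4.11 on both sides of 0.

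Promoter sequence was available in the RefSeq table (GRCh38.p14) for 8 of the 10 members, KLKP1 and KLK8 not being matched. The 250 bases before the start of KLK2 and KLK3, which flank KLKP1 on its low-coordinate side, are shown because both stayed at or near 0 while KLKP1 rose. Capitals mark AGAACA, the core of a steroid hormone response element, read 5′ to 3′ on the plus strand and searched on both strands.
KLK2 (chr19:50873189-50873438): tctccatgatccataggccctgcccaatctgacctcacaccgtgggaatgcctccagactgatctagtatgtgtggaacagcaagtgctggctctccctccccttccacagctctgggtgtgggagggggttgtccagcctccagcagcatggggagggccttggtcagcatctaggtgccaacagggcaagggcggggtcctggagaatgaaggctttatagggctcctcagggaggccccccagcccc
KLK3 (chr19:50854665-50854914): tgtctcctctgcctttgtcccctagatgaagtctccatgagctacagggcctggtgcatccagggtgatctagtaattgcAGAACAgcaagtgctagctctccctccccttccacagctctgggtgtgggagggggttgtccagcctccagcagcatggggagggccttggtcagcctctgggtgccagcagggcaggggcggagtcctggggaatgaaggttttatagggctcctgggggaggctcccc

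AGAACA occurred in KLK3 alone among these 8 members, and in 12.4% of all 35116 promoter windows of that length. TATAAA occurred in KLK2 and KLK3 and in 10.7% of all windows. CCAAT occurred in KLK2 and KLK7 (32.0% of all windows) and GGGCGG in KLK2, KLK3, KLK6, KLK7 and KLK11 (42.6%). The p53 consensus was found in 0 members and in 0.0256% of all windows. A match is a description of letters, not a site.

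FOXA1, a pioneer transcription factor of the prostate, and STEAP2 held 0 counts in all 12 libraries, and TMPRSS2 held 3 counts, all in the combination. Of 13 steroid receptor and androgen programme genes, 6 passed the filter, with 1 called higher and 3 lower in the combination against teriflunomide (35.2% and 35.8% of all tested genes). The oestrogen receptor gene ESR1 fell (-3.75, SE 0.292), as did FKBP5, a steroid-induced chaperone (-1.24, SE 0.131), and NR3C1, the glucocorticoid receptor (-1.18, SE 0.142). HOXB13 and SLC45A3 of the same list were present in every group and were not called in this comparison. HOXB13 averaged 184 CPM in control, 121 in teriflunomide, 127 in lurbinectedin and 113 in the combination. SLC45A3 averaged 11.1, 9.73, 14.3 and 13.3 CPM in the same order.

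Of 10 kallikrein inhibitors, 4 passed, with 1 called higher and 1 lower in the combination against teriflunomide (35.2% and 35.8% of all tested genes). SPINK5, which encodes the skin inhibitor of KLK5 and KLK7, fell (-1.04, SE 0.201, edgeR adjusted p = 0.000358) from 146, 142 and 269 CPM to 92.9, 102 and 75.3 CPM. SERPINA1, a serum protease inhibitor, rose by 3.69 (SE 0.707), from at most 0.0898 CPM to at most 0.507 CPM, and by 6.69 without teriflunomide replicate 2. SERPINF2, the plasmin inhibitor, had 0.57 (SE 0.335, edgeR adjusted p = 0.143).

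Of 16 kallikrein substrates and receptors, 7 passed, with 2 called higher and 4 lower in the same comparison (35.2% and 35.8% of all tested genes). APP, the amyloid precursor, fell (-3.64, SE 0.191) from 280, 273 and 336 CPM to 31.7, 17.1 and 22.4 CPM, and FN1, which encodes fibronectin, fell (-1.53, SE 0.119). FLG, which encodes filaggrin of the outer skin, rose (4.50, SE 0.673, and 5.30 without teriflunomide replicate 2) to at most 1.22 CPM. FLG and SERPINA1 also passed the filter only through libraries with lurbinectedin. PLAU, which encodes urokinase, also rose (0.61, SE 0.189), and DSC1, a desmosomal cadherin, and F2R, the thrombin receptor, fell. With teriflunomide against control FN1 (0.48) and PLAU (0.95) were called higher, as were 3.88% of all tested genes, and neither was with library size as the only scaling. The median log2 fold change was -0.73 in this list, 0.39 over the inhibitors and -0.64 over the steroid list, against 0.04 over all genes.

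The genes whose profile over the 12 libraries was nearest to KLKP1 lie on other chromosomes. The measure was the root mean square difference of log2 CPM profiles, each centred on its own mean. Of the 5 nearest, 4 are described: SERPINB5, which encodes maspin (1.67), the pseudogene PRXL2AP2 (1.67), TENT5C, which encodes an RNA polyadenylating enzyme (1.69), and GRM2, a glutamate receptor (1.71). Within the 6 libraries with lurbinectedin, Pearson's r with KLKP1 was 0.95 for PRXL2AP2, 0.94 for TENT5C, 0.09 for GRM2 and -0.18 for SERPINB5, given as a description of libraries that share depth and scaling. PRXL2AP2 had 4.41, 4.03 and 2.83 CPM in lurbinectedin and 3.33, 5.31 and 1.31 CPM in the combination, the same order of combination libraries as KLKP1.

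**Figure D5:**
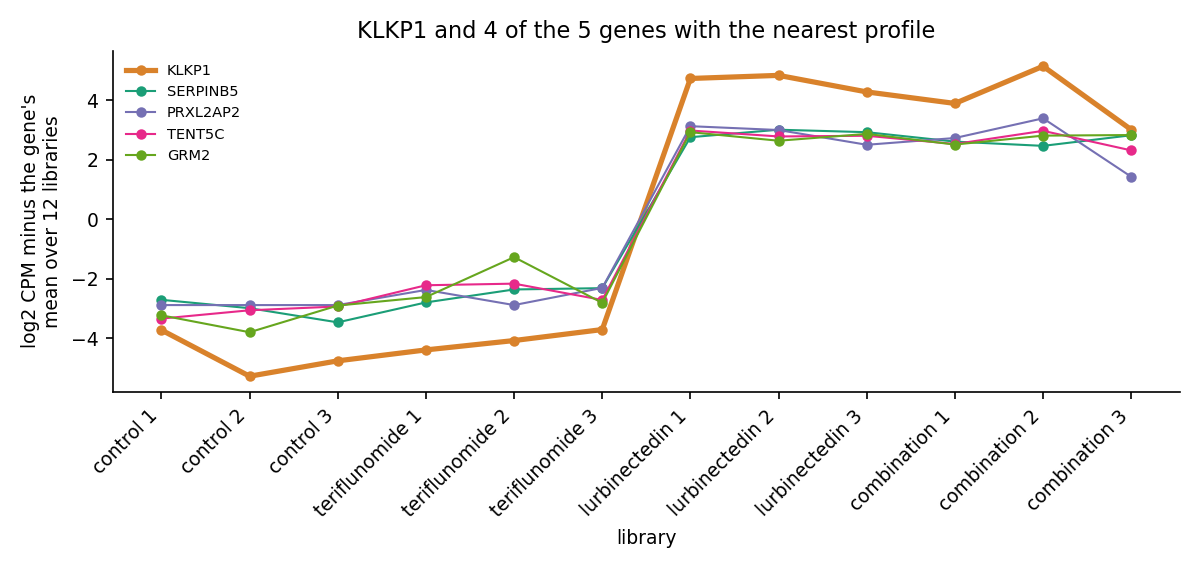
Log2 CPM minus the gene's own mean over 12 libraries, one line per gene, for KLKP1 and 4 of the 5 genes with the nearest profile. All the lines are low in control and teriflunomide and high in lurbinectedin and the combination, and KLKP1 has the widest step.

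The libraries held 23206414 to 33222162 counts. The 10 small cell lung cancer and neuroendocrine markers summed to 262 to 286 CPM in control and 106 to 115 CPM in lurbinectedin. They summed to 304 to 368 CPM in teriflunomide and 122 to 171 CPM in the combination. From control to lurbinectedin, mean YAP1 went from 246 to 64.9 CPM, SYP from 16.8 to 30.9 and CHGB from 3.01 to 8.72. In control NEUROD1 averaged 4.03 CPM and DLL3 1.96 CPM, while INSM1 was at 0 in all libraries and NCAM1 was at or near 0. Of other cell types, immune markers summed to at most 0.447 CPM and endothelial markers to at most 0.579 CPM in a library. The 5 prostate luminal markers summed to 560 to 572 CPM in control, 579 to 604 in teriflunomide, 431 to 456 in lurbinectedin and 449 to 457 in the combination, so their sum was lower where KLKP1 was high. Keratinocyte markers summed to 234 to 239 CPM in control and 63.4 to 64.6 CPM in lurbinectedin, and fibroblast markers to 519 to 549 and 187 to 220 CPM. Epithelial markers, most of whose sum is KRT8, went the other way: 236 to 252 CPM in control, 196 to 307 in teriflunomide, 400 to 433 in lurbinectedin and 373 to 444 in the combination, with EPCAM and CDH1 at or near 0. The part of these markers in the KLKP1 result was not tested.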

How the data were processed

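RNA from 12 libraries of SBC3 cells was sequenced from mRNA libraries. Per the submitters' processing notes, fastp 0.23.2, STAR 2.7.9 and featureCounts of Subread were used with genome build hg38. The deposited values are raw counts per gene, and the strand setting and annotation release are not given in the sources used here. Names were matched for 60463 of the 60649 gene identifiers.

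Counts were tested with edgeR 4.0.16 in R 4.3.3 (TMM scaling, filterByExpr over the 4 groups, robust quasi-likelihood F test, all 12 libraries sharing 1 spread, 16683 genes tested, Benjamini-Hochberg adjusted p under 0.05). The fit was tested on simulated data for the combination against teriflunomide (16199 genes), where 71% of genes changed by a log2 of 1 and 90% of those changed by 2 were recovered. DESeq2 1.42.0, other scalings and filters, a replicate block and leaving out each library were alternatives. Replicate numbers were not taken to pair libraries. Alignments used blastn 2.17.0.

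The members and gene lists were chosen with earlier results of these data known. Named genes were all members, up to 3 locus genes called in each direction and up to 3 genes per list by smallest adjusted p in the combination against teriflunomide, and the 5 nearest profiles. Some genes that this rule names are not reported here. Protein sequences were not used here. Intervals and floors cover counting error only.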

Additional observations from a re-analysis of the deposited data

How the results depend on the processing

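The rise of KLKP1 in the combination against teriflunomide was called under all 13 alternatives, with a log2 fold change of 8.31 to 9.43. KLK13 kept both of its calls, which share the teriflunomide libraries, under all 13. Of the other KLKP1 values, the combination against lurbinectedin ran from -1.12 to 0.012 over single libraries left out, the latter without combination replicate 3. Deviations of log2 CPM from the group means correlated at -0.40 to 0.14 between same-numbered libraries over 18 pairs, so the numbers were not taken as pairing. With the replicate block KLKP1 had 8.95 in the combination against teriflunomide.

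Counts of all genes called moved more. Teriflunomide against control had 1002, and 265 with library size only, 1800 with no filter, 415 with the replicate block, 283 with only the groups compared, 1796 with DESeq2 and 216 to 1555 when single libraries were left out. The interaction had 43, and 6, 195 and 8 under the first 3 of these, 226 with DESeq2 and 2 to 616 with a library left out. The combination against lurbinectedin had 0, and 612 with no filter, 94 with only the groups compared, 558 with DESeq2 and 0 to 259 with a library left out. With no filter, members called higher in the combination against teriflunomide went from 1 to 2 through KLK4, and locus genes called lower with teriflunomide from 0 to 3. With a filter at 1 CPM, locus genes called higher fell from 8 to 5 and called inhibitors from 2 to 1. Called substrates with teriflunomide went from 2 to 0 with library size only, with the replicate block and with only the groups compared, and ranged from 0 to 2 with a library left out. Called steroid genes with teriflunomide went from 1 to 2 with no filter and 1 to 2 with a library left out. A prior count of 0.5 kept 2 of the 5 nearest profiles. In teriflunomide against control, the log2 fold change of SERPINA1 ran from -3.06 to 0.74 over single libraries left out and that of APP from -0.15 to 0.012. SERPINA1 turned positive when control replicate 3 (0.74), teriflunomide replicate 1 (0.51) or teriflunomide replicate 3 (0.42) was dropped. The cause of these changes was not tested. Depth limits the neighbours: 3 counts in a library are 0.0879 to 0.145 CPM.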
